A study of Arabidopsis thaliana with 3 samples.

Results

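SIAMESE (SIM) and the SIAMESE-RELATED genes SMR1 to SMR8 were described across 3 libraries of Arabidopsis thaliana seedlings. The 9 genes were found by their locus identifiers, and all 9 were among the 33559 loci of the expression table, each as 1 entry with a value above 0 in every library. Poly(A) RNA was sequenced from whole seedlings of abo4, of mms19-1 and of the wild type, all in the Col ecotype, grown for 14 days on MS agar without a drug, and each genotype had 1 library. abo4 carries a viable, weak allele of the gene for the catalytic subunit of DNA polymerase epsilon, a replicative polymerase whose full loss kills the embryo, and mms19-1 is a T-DNA insertion line of MMS19, a factor that helps to insert iron-sulfur clusters into cytosolic and nuclear proteins. How many seedlings went into a library is not given in the sources used here. Because every genotype stands on 1 library, differences could not be set against a spread between replicates, p-values are left out, and the intervals below cover only the counting error of these libraries.

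SIM and SMR proteins are small, plant-specific inhibitors of cyclin-dependent kinases (CDKs). By holding back CDKs that drive mitosis, they favour the switch from cell division to the endocycle, in which a cell copies its DNA without dividing. SIM acts in trichomes (leaf hairs), which become multicellular without it, SMR1 (also called LGO) in giant cells of the sepal and leaf epidermis, and SMR4 in the stomatal lineage. SMR5 and SMR7 are known for their induction by DNA damage and by reactive oxygen, and the transcription factor SOG1, the central regulator of the plant DNA damage response, drives SMR4, SMR5 and SMR7 after damage.

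All 9 genes have 1 exon in the RefSeq annotation of TAIR10.1. SMR7 (AT3G27630) lies on chromosome 3 from 10230892 to 10231567, SMR5 (AT1G07500) on chromosome 1 from 2304766 to 2305031 and SMR4 (AT5G02220) on chromosome 5 from 441452 to 442187, each on the minus strand. The sequence before the start of each gene is shown because SOG1 is known to bind the palindrome CTTNNNNNNNAAG, and these genes are the ones of the family in which that palindrome lay within 250 bases upstream. The windows of SMR7 and SMR4, 250 bases on the minus strand of TAIR10.1 written 5′ to 3′ and ending at the base before the annotated start, have the palindrome in capitals. For SMR5, where the same window falls in the first exon of a gene on the other strand, only the palindromes with 8 bases on either side are shown.
SMR7, chr3:10231568-10231817: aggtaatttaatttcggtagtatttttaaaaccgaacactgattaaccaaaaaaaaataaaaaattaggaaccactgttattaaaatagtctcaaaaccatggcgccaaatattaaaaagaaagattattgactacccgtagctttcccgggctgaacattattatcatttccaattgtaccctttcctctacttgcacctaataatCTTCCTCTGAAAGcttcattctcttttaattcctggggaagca
SMR4, chr5:442188-442437: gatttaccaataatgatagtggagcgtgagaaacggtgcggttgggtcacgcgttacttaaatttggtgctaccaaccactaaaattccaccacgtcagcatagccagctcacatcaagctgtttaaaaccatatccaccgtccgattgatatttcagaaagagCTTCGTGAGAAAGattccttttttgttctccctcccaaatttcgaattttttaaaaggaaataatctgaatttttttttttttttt
SMR5, chr1:2305107-2305135: cctagcaaCTTCCAGAACAAGctacggtc
SMR5, chr1:2305043-2305071: ttaagaacCTTATTAGGAAAGtgcgagag
Counted from the annotated start, the first base of the palindrome stood at -43 in SMR7, at -86 in SMR4 and at -96 and -32 in SMR5. The annotated transcript of SMR5 has 266 bases, 249 of them coding, against 676 and 300 in SMR7 and 736 and 219 in SMR4. Its start may thus not be like those of SMR7 and SMR4, and its positions may not be comparable with theirs. Both strands are covered by the search, since the palindrome reads the same on each. It was found within 250 bases in 3 of 9 members, beside 9.71% of 27443 protein-coding genes. Within 1000 bases it was found in 4 of 9 members, the added one being SIM at -654, beside 33.3% of protein-coding genes. The letters of E2F sites (TTTCCCGC, TTTGGCGC, TTTCGCGC or TTTGCCGC on either strand), which cell cycle factors of the E2F family bind, occurred within 250 bases 3 times in SMR6 and 1 time in SMR7, at -148 and apart from its palindrome, and in none of the other members, beside 1.41% of protein-coding genes. A match is a description of the letters, and binding was not measured here.

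Expression is given as FPKM, fragments per kilobase of transcript scaled to the reads of the library, which is a level per length. Setting different genes side by side thus depends on the gene models that gave their lengths, which are not known in full. The FPKM values rested on 49704086 reads in abo4, 51409839 in mms19-1 and 56126788 in the wild type, as recovered from the lowest values of the table. The MMS19 gene itself (AT5G48120) had 9.01 FPKM in abo4, 0.228 FPKM in mms19-1 and 10.14 FPKM in the wild type, so mms19-1 kept 2.25% of the wild-type level. The abo4 allele changes an amino acid, so the level of its transcript (AT1G08260; 8.09 FPKM in abo4, 6.95 FPKM in mms19-1 and 5.03 FPKM in the wild type) does not check that label. Leaf, root tip and shoot meristem markers were listed in the libraries, except for the stem cell regulator WUS, which was listed at 0 in mms19-1 and stood at about 1 read in the others.

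SMR7 and SMR5 were higher in both mutants, and SMR4 was higher in abo4, while the other 6 members stayed within 2-fold of the wild type in both mutants. SMR7 had 97.3 FPKM in abo4, 31.0 FPKM in mms19-1 and 3.31 FPKM in the wild type. Its level was thus 29.4 times the wild type in abo4 and 9.37 times in mms19-1, and abo4 stood well above mms19-1. The 95% exact interval of the fold was 23.6 to 36.6 for abo4 and 7.46 to 11.8 for mms19-1, with reads estimated from the FPKM value and the length of the RefSeq transcript. The gene models behind the FPKM values are not known in full, so reads were also taken as the smallest whole numbers that stand in the ratios of the FPKM values and library sizes, a choice made after the data were seen. These were 495 reads in abo4, 163 in mms19-1 and 19 in the wild type, which widened the intervals to 18.6 to 49.3 for abo4 and 5.81 to 16.0 for mms19-1.

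SMR5 had 56.3 FPKM in abo4, 42.4 FPKM in mms19-1 and 9.81 FPKM in the wild type. Both mutants lay well above the wild type and near each other. The fold over the wild type was 5.74 in abo4 (95% exact interval 4.25 to 8.03) and 4.32 in mms19-1 (3.16 to 6.07). With the smallest whole reads, 117 in abo4, 91 in mms19-1 and 23 in the wild type, the intervals were 3.65 to 9.42 and 2.71 to 7.15. SMR5 lies whole within the first exon of FTSH10 (AT1G07510), a gene for a mitochondrial protease on the opposite strand, and the libraries are not stated to keep strand, so reads of the pair cannot be told apart. FTSH10 had 21.1 FPKM in abo4, 21.7 FPKM in mms19-1 and 19.1 FPKM in the wild type, log2 ratios of 0.15 in abo4 and 0.18 in mms19-1. The part of FTSH10 reads in the levels of SMR5, that of the wild type included, was not tested.

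SMR4 had the lowest level of the family in each library, with 1.62 FPKM in abo4, 0.660 FPKM in mms19-1 and 0.604 FPKM in the wild type. Its fold over the wild type was 2.68 in abo4 (95% exact interval 1.52 to 4.97) and 1.09 in mms19-1 (0.536 to 2.22). The value in abo4 rested on few reads, the smallest whole numbers being 19 in abo4, 8 in mms19-1 and 8 in the wild type. With these, the interval was 1.12 to 7.08 in abo4 and 0.357 to 3.34 in mms19-1, so at this depth a difference between mms19-1 and the wild type was not detectable. Its mean over the 3 libraries, 0.962 FPKM, is just under the minimum of 1 FPKM used below, so it drops out wherever that minimum is applied.

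**Figure D1:**
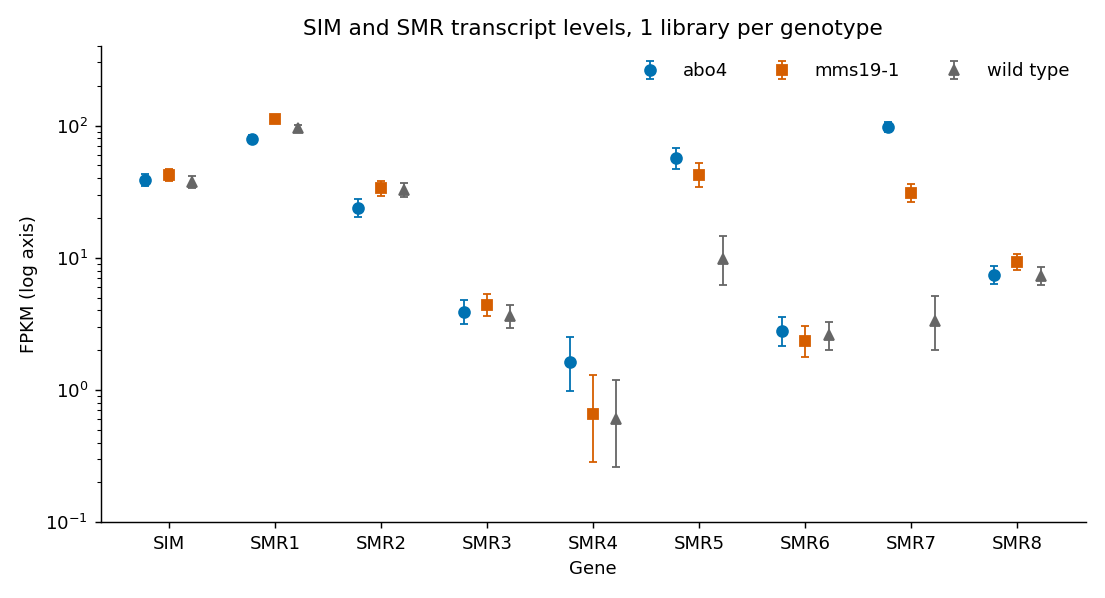
FPKM of the 9 SIM and SMR genes in abo4, mms19-1 and the wild type (1 library each) on a log axis, with bars for the 95% exact Poisson interval of the reads behind each value (smallest whole reads, or the coding length for SIM, SMR1 and SMR2). SMR7 and SMR5 stand apart from the wild type in both mutants, at 97.3 and 56.3 FPKM in abo4, while the bars of SMR4 are wide and overlap between the genotypes.

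Against the table as a whole, 3 of 9 members were past 2-fold higher in abo4 (log2 ratios of FPKM + 0.1 to the wild type), beside 3.87% of the 26416 loci with a value above 0, and none was more than 2-fold lower, beside 2.58%. In mms19-1, 2 of 9 members were more than 2-fold higher, beside 2.38% of loci, and none was more than 2-fold lower, beside 1.64%. Among 19771 genes whose mean reached 1 FPKM, the shares were 1.92% higher and 1.90% lower in abo4, and 1.03% higher and 0.804% lower in mms19-1, beside 2 of the 8 members that passed this minimum in both mutants. The log2 ratio of SMR7 was 4.84 in abo4 and 3.19 in mms19-1, the 33rd and the 40th highest of these genes. That of SMR5 was 2.51 in abo4 and 2.10 in mms19-1, the 62nd highest in both. The median log2 ratio of the 9 members was 0.11 in abo4 and 0.22 in mms19-1, beside medians of -0.01 and -0.02 over the genes of at least 1 FPKM. Both comparisons use the same wild-type library, so an unusual value there would enter both.

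The other members held close to the wild type. SMR1 (AT3G10525, chromosome 3, 3281306 to 3282131) had 79.2 FPKM in abo4, 111 FPKM in mms19-1 and 95.3 FPKM in the wild type. This gave 0.832 times the wild type in abo4 (95% exact interval 0.789 to 0.876) and 1.17 times in mms19-1 (1.11 to 1.22), so the mutants lay on either side of the wild type. SMR2 (AT1G08180, chromosome 1, 2564361 to 2565318) had 23.7 FPKM in abo4, 33.5 FPKM in mms19-1 and 32.5 FPKM in the wild type, or 0.728 times the wild type in abo4 (0.669 to 0.793) and 1.03 times in mms19-1 (0.955 to 1.11). With the shorter coding sequence as the length, also tried after the data were seen, the intervals of SMR1 in both mutants and of SMR2 in abo4 still left out 1. SIM (AT5G04470, chromosome 5, 1266625 to 1267416) had 38.7 FPKM in abo4, 42.4 FPKM in mms19-1 and 37.3 FPKM in the wild type. Its fold was 1.04 in abo4 (0.955 to 1.12) and 1.14 in mms19-1 (1.05 to 1.23), and the second interval held 1 with the coding length (0.986 to 1.31).

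SMR8 (AT1G10690, chromosome 1, 3549920 to 3550848) had 7.42 FPKM in abo4, 9.26 FPKM in mms19-1 and 7.30 FPKM in the wild type, so mms19-1 was 1.27 times the wild type (95% exact interval 1.08 to 1.49, and 1.03 to 1.56 with the smallest whole reads). SMR3 (AT5G02420, chromosome 5, 523257 to 524076) had 3.91 FPKM in abo4, 4.38 FPKM in mms19-1 and 3.61 FPKM in the wild type. SMR6 (AT5G40460, chromosome 5, 16202142 to 16203358) had 2.80 FPKM in abo4, 2.34 FPKM in mms19-1 and 2.59 FPKM in the wild type. The intervals of SMR3 and SMR6 held 1 in both mutants. They ran for SMR3 from 0.837 to 1.40 in abo4 and from 0.947 to 1.56 in mms19-1, and for SMR6 from 0.854 to 1.37 in abo4 and from 0.707 to 1.16 in mms19-1, so differences smaller than these bounds were not detectable at this depth. SIM and SMR1 each overlap a locus on the opposite strand that was not analysed here.

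**Figure D2:**
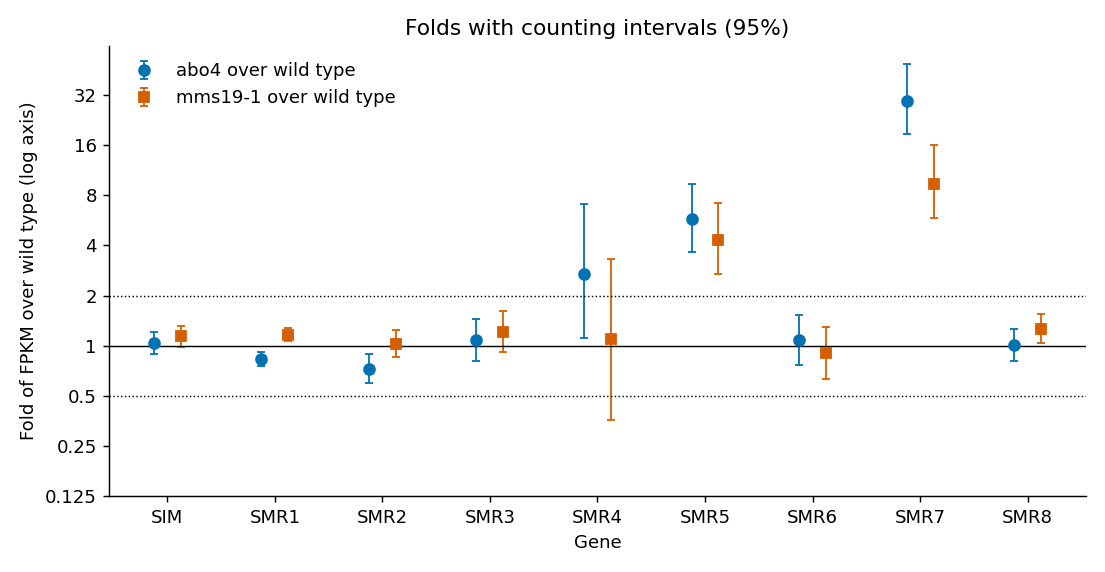
Fold of FPKM over the wild type for each SIM and SMR gene in abo4 and in mms19-1 on a log axis, with 95% exact intervals from the smallest whole reads, or from the coding length for SIM, SMR1 and SMR2, and dotted lines at 2-fold higher and lower. The folds of SMR7, 29.4 in abo4 and 9.37 in mms19-1, and of SMR5, 5.74 and 4.32, lie with their whole intervals above the upper dotted line.

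The mutants were also set against each other. SMR7 was 3.14-fold higher in abo4 than in mms19-1 (95% exact interval 2.89 to 3.42, and 2.63 to 3.77 with the smallest whole reads). SMR5 was 1.33-fold higher (1.10 to 1.61, and 1.003 to 1.77 with the smallest whole reads), so SMR5 differed far less between the mutants than SMR7 did. SMR4 was 2.46-fold higher in abo4 than in mms19-1 (1.40 to 4.55, and 1.03 to 6.49 with the smallest whole reads). SMR1 and SMR2 were at 0.713 and 0.706 times their levels in mms19-1. Of 9 members, 2 were more than 2-fold higher in abo4, beside 3.60% of loci, and none was more than 2-fold lower, beside 3.26%. SMR7 was the 136th highest of the same 19771 genes in this comparison, and SMR5 the 2113th.

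These differences reordered the family by FPKM. The order, shares and sums across genes depend on the gene lengths behind the FPKM values, which are not known in full. In the RefSeq annotation, SMR5 measures 266 bases, against 792 for SIM, 826 for SMR1 and 958 for SMR2. In abo4, SMR7 had the highest FPKM with 31.3% of the sum of the 9 genes, before SMR1 with 25.5% and SMR5 with 18.1%. In mms19-1, SMR1 held 40.1% and SMR7 11.2%, in place 5. In the wild type, SMR1 held 49.6%, SIM 19.4% and SMR2 16.9%, and SMR7 stood in place 7 with 1.72%. Overlaps were read from counting intervals with the smallest whole reads, or with the coding length for SIM, SMR1 and SMR2. By these, SMR7 and SMR1 did not overlap in abo4, whereas SIM, SMR5, SMR2 and SMR7 overlapped their neighbours in the order of mms19-1. In the wild type, SIM overlapped SMR2, SMR5 overlapped SMR8, and SMR7 overlapped both SMR3 and SMR6. With the RefSeq transcript as the length, SMR5 (36.6 to 48.8 FPKM) and SMR2 (31.7 to 35.4 FPKM) did not overlap in mms19-1. Nor did SIM (35.2 to 39.4 FPKM) and SMR2 (30.8 to 34.3 FPKM) in the wild type, while the other calls held. The sum over the family was 310.9 FPKM in abo4, 277.0 FPKM in mms19-1 and 192.3 FPKM in the wild type. Without SMR5 and SMR7 it was 157.3 FPKM in abo4, 203.7 FPKM in mms19-1 and 179.2 FPKM in the wild type, so the larger sums in the mutants lay in SMR5 and SMR7 for abo4 and mostly there for mms19-1.

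**Figure D3:**
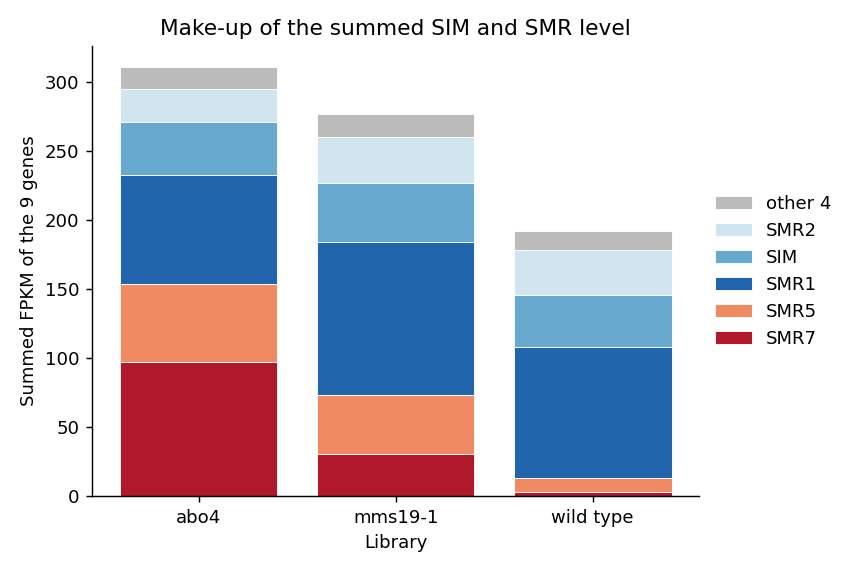
Summed FPKM of the 9 SIM and SMR genes in abo4, mms19-1 and the wild type (1 library each), stacked by gene, where "other 4" stands for SMR3, SMR4, SMR6 and SMR8. The part of SMR7 and SMR5 is a thin band in the wild type and the lower part of a taller bar in both mutants, at 31.3% and 18.1% of the sum in abo4. The shares depend on the gene lengths behind the FPKM values.

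AOX1C (AT3G27620), a gene for a mitochondrial alternative oxidase that lies 185 bases beyond the 3′ end of SMR7 on the same strand, had 2.90 FPKM in abo4, 0.633 FPKM in mms19-1 and 0.502 FPKM in the wild type. Its log2 ratio was thus 2.32 in abo4 and 0.29 in mms19-1, and whether reads running on from SMR7 take part in it was not tested. On the other side of SMR7, AT3G27640 had log2 ratios of 0.57 in abo4 and -0.09 in mms19-1. Of these ratios only that of AOX1C in abo4 was past 2-fold. AOX1C was named after its values were seen, as were FTSH10 and AT3G27640.

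The genes whose pair of log2 ratios over the wild type lay nearest to those of SMR5 and SMR7, among the 19771 genes and over the 3 libraries, share these libraries and are given as a description. Nearest to SMR5 were AT3G60647, TIM17-1 (a mitochondrial import subunit in its naming), the microRNA gene MIR393b, GEX1 (named for its expression in gametes) and AT3G24615, at distances of 0.22 to 0.40 on the log2 scale. Nearest to SMR7 were AT4G35655, MIR779, SEP2 (a floral MADS-box factor), AT2G18193 and AT1G59920, at larger distances of 0.58 to 0.96. In the wild type, AT4G35655 and MIR779 were listed at 0, SEP2 had 0.0147 FPKM and AT1G59920 had 0.0914 FPKM, so the ratios of these genes, and their nearness to SMR7, depend on the 0.1 FPKM that was added. AT2G18193 had 47.6 FPKM in abo4, 9.51 FPKM in mms19-1 and 1.74 FPKM in the wild type, each below the level of SMR7 in the same library.

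The pathway around SMR5 and SMR7 was followed through gene lists. Of 6 genes of DNA damage signalling, 3 passed 2-fold above the wild type in abo4 and 2 did in mms19-1, beside 3.87% and 2.38% of all loci. With 1 FPKM added in place of 0.1, these counts were 1 and 0, and with a minimum mean of 1 FPKM the count in mms19-1 was 1. ANAC044 is a NAC factor related to SOG1 that holds cells before mitosis after damage. Its level was 6.77 FPKM in abo4, 2.40 FPKM in mms19-1 and 0.743 FPKM in the wild type. Within 250 bases upstream, the palindrome lay in ANAC044 alone, 1 of the 6 genes, beside 9.71% of protein-coding genes. ANAC085 and WEE1 did not have it there. ANAC085, a close relative of ANAC044, had 0.972 FPKM in abo4, 0.802 FPKM in mms19-1 and 0.0210 FPKM (about 1.60 reads) in the wild type. Its fold with nothing added was 46.3 in abo4 (95% exact interval 9.92 to 314.1) and 38.2 in mms19-1 (8.08 to 258.6), above the folds of SMR7 but with far wider intervals. WEE1, a kinase that inhibits CDKs when replication stalls, was higher in abo4 (log2 ratio 1.09) and not in mms19-1 (-0.40). The transcripts of SOG1 itself (log2 ratios -0.12 in abo4 and -0.02 in mms19-1) and of the damage kinases ATR (0.05 and -0.05) and ATM (-0.37 and -0.10) stayed near or below the wild type.

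Of 11 genes known to be induced by DNA damage, 9 passed 2-fold above the wild type in abo4 and 5 did in mms19-1, beside the same 3.87% and 2.38% of loci, and all 11 lay above the wild type in both. Their median log2 ratio was 2.01 in abo4 and 0.93 in mms19-1. TSO2, which encodes a subunit of the enzyme that makes deoxynucleotides, was the highest of the list in abo4, with 344.5 FPKM in abo4, 107 FPKM in mms19-1 and 61.5 FPKM in the wild type. The smallest ratios were those of PARP1, a sensor of DNA breaks, at 0.58 in abo4 and 0.30 in mms19-1. The ratio of SMR7 was above that of each gene of the list in both mutants. That of SMR5 was close to that of TSO2 in abo4 (2.51 and 2.48) and above it in mms19-1 (2.10 and 0.80). The palindrome lay within 250 bases of 3 of the 11 genes. It lay there in 46 of 325 protein-coding genes of at least 1 FPKM past 2-fold above the wild type in abo4 (14.15%), in 27 of 159 such genes in mms19-1 (16.98%) and in 8.82% of all protein-coding genes of at least 1 FPKM.

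Among the other inhibitors and the partners of the SIM family, ratios were smaller. Beside the counts below, 3.87% of all loci were more than 2-fold higher and 2.58% more than 2-fold lower in abo4. In mms19-1 these shares were 2.38% and 1.64%. A single gene past 2-fold is therefore not read as a result about its list. None of the 7 KRP genes, which encode the second family of plant CDK inhibitors, was past 2-fold in either mutant, and the most distant was KRP1 (log2 ratio -0.81 in abo4 and -0.25 in mms19-1). KRP6 was the highest in both (0.65 in abo4 and 0.35 in mms19-1), and KRP5 the lowest in mms19-1 (-0.37). Of 15 genes for CDKs and D-type cyclins, CDKB1;1, a mitotic CDK, was more than 2-fold higher in abo4 (log2 ratio 1.23, and 0.18 in mms19-1), and none was past 2-fold in mms19-1. CYCD7;1, a D-type cyclin of the stomatal lineage, was the lowest in abo4 (-0.53) and the highest in mms19-1 (0.97), with 0.0805 FPKM in abo4, 0.409 FPKM in mms19-1 and 0.160 FPKM in the wild type, and it passed 2-fold in mms19-1 with 0.01 FPKM added. CYCD2;1 was the lowest in mms19-1 (-0.17). Of 15 genes of the G2 and M phases, CYCA2;4, an A-type cyclin, was more than 2-fold higher in abo4 (1.09, and 0.36 in mms19-1), though not with 1 FPKM added. HINKEL, a kinesin of cell plate formation, was the lowest in abo4 (0.01), CYCB2;2, a B-type cyclin, the highest in mms19-1 (0.39), and CDC20.2, an activator of mitotic protein breakdown, the lowest there (-0.29). All 15 of these lay above the wild type in abo4, with a median log2 ratio of 0.53, against 8 of 15 and a median of 0.00 in mms19-1. Of the CDKs and D-type cyclins, 13 of 15 lay above it in abo4 (median 0.36) and 7 of 15 in mms19-1 (median -0.02). Over the genes of at least 1 FPKM the medians were -0.01 in abo4 and -0.02 in mms19-1. None of 12 regulators of the endocycle and the cell cycle was past 2-fold in either mutant, and the highest in abo4 was DEL1, a repressor of the endocycle (0.91, and 0.12 in mms19-1). MYB3R5, a MYB factor that represses genes of mitosis, was the lowest at -0.54 in abo4 and -0.43 in mms19-1, and MYB3R4, its activating relative, the highest in mms19-1 (0.24). Of 6 genes of the response to reactive oxygen, BAP1 was more than 2-fold higher in abo4 (1.35, and 0.04 in mms19-1), and none was in mms19-1. FER1, an iron store, was at -0.04 in abo4 and 0.28 in mms19-1, and RBOHD, an oxidase that makes reactive oxygen, was at -0.03 and -0.57. A part of reactive oxygen in the levels of SMR5 and SMR7 was not tested.

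**Figure D4:**
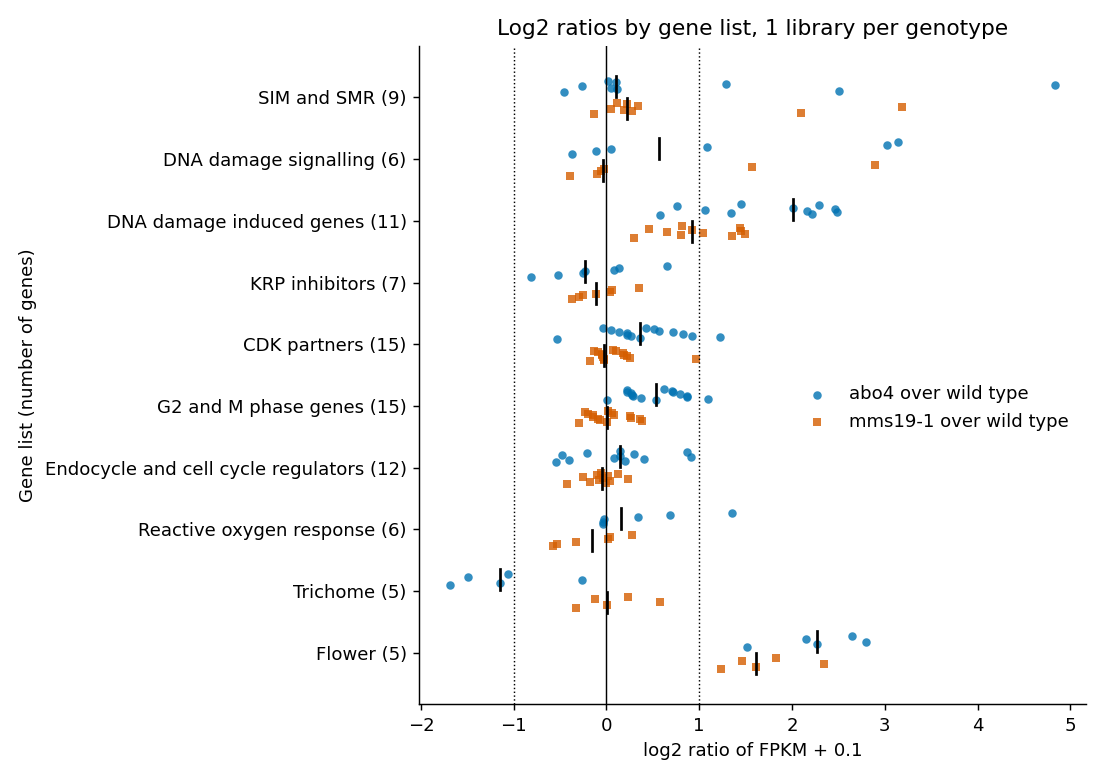
Log2 ratio of FPKM + 0.1 over the wild type for each gene of the SIM and SMR family and of the other lists, in abo4 (circles) and mms19-1 (squares), with a black bar at each list's median and dotted lines at 2-fold. SMR7 (4.84 in abo4 and 3.19 in mms19-1) lies to the right of the other genes drawn in both mutants with 0.1 FPKM added, though with 0.01 FPKM added ANAC085 passes it (4.99 in abo4 and 4.71 in mms19-1), while the KRP genes stay between the dotted lines.

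Seedlings are a mixture of tissues, and in such bulk samples fewer cells of a type and less RNA per cell cannot be told apart. Markers of flowers moved with SMR5 and SMR7. Each of 5 floral identity genes passed 2-fold above the wild type in both mutants, beside 3.87% of all loci in abo4 and 2.38% in mms19-1. With 1 FPKM added, 3 passed in abo4 and 2 in mms19-1. With a minimum mean of 1 FPKM, 2 of the 5 genes were left, and these passed in both mutants. The summed level of the 5 genes was 19.3 FPKM in abo4, 10.7 FPKM in mms19-1 and 3.07 FPKM in the wild type, with none at 0. For SEP3, the most abundant of them, the level was 12.6 FPKM in abo4, 6.09 FPKM in mms19-1 and 1.93 FPKM in the wild type. AG, which specifies stamens and carpels, had the highest log2 ratio in abo4 (2.80) and the lowest in mms19-1 (1.23), and AP3, which specifies petals and stamens, the lowest in abo4 (1.51) and the highest in mms19-1 (2.34). Their part in the levels of SMR5 and SMR7 was not tested. Of 5 trichome genes, 4 were more than 2-fold lower in abo4, beside 2.58% of all loci, and none in mms19-1, beside 1.64%. With 1 FPKM added, 2 were more than 2-fold lower in abo4. GL1, a MYB factor that starts trichomes, was the lowest in abo4 (log2 ratio -1.69) and the highest in mms19-1 (0.57). GL3, its partner, lay nearest to the wild type in abo4 (-0.26), and TRY, a repressor of trichome fate, was the lowest in mms19-1 (-0.33). The summed level of the trichome genes was 8.22 FPKM in abo4, 19.0 FPKM in mms19-1 and 19.7 FPKM in the wild type. SIM, the member known from trichomes, was at 1.04 times the wild type in abo4 beside these lower markers, and their part in the levels of SIM, SMR1 and SMR2 was not tested.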

How the data were processed

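Poly(A) RNA of abo4, mms19-1 and wild-type seedlings was measured in 1 library each. The submitters' processing notes name TopHat2 2.0.12, Bowtie, Cufflinks 2.0.1, Cuffdiff and the TAIR10 genome. The authors deposited FPKM values per gene, without log transformation. The members and lists were chosen with earlier results of these data known, and from each list the genes with the highest and the lowest ratio in each mutant are named, with an exception not reported here, others being named after their values were seen. Of several entries of a locus, the one with the larger mean was kept, which left out 574. Ratios are log2 ratios of FPKM + 0.1, which understates folds of low genes, with limits of 1 and -1. No test between genotypes was made. Reads were estimated from FPKM, the library size and the effective transcript length (fragments of mean 200 and SD 80 nt, shortest 49 nt) from the RefSeq annotation of TAIR10.1, whose models may be longer than those the authors used, for SMR7 in particular. Ratios of reads carry 95% Clopper-Pearson intervals. Whole reads were found for 6 of 9 members within 0.003% of the FPKM ratios, and since multiples of them match equally, they are the fewest reads possible. The fold limit and the intervals were tested on simulated read counts of genes with many reads. The step that estimates reads from FPKM, and genes with few reads, were not covered by that. Promoter windows are from RefSeq TAIR10.1. Python 3.11.15, numpy 2.4.6, pandas 2.3.3, scipy 1.17.1 and matplotlib 3.10.9 were used. The alternatives were pseudocounts of 1 and 0.01 FPKM, a minimum mean of 1 FPKM, centring on the median, summed entries, a 4-fold limit, nothing added with an interval that leaves out 1, and other read estimates.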

Additional observations from a re-analysis of the deposited data

How the results depend on the processing

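No paired analysis was possible because each genotype has 1 library. The number of members more than 2-fold higher than the wild type was 3 in abo4. It fell to 2 with a pseudocount of 1 FPKM, with a minimum mean of 1 FPKM and with a 4-fold limit, each of which takes out SMR4. In mms19-1 the number was 2 under each alternative run. The number more than 2-fold higher in abo4 than in mms19-1, which was 2, was 1 with a pseudocount of 1 FPKM and 1 with a minimum mean of 1 FPKM, which takes out SMR4, and 0 with a 4-fold limit. With a pseudocount of 1 FPKM, the log2 ratio of SMR7 was 4.51 in abo4 and 2.89 in mms19-1. Of 132 recomputed log2 ratios of members, these 2 alone left the interval of their fold from the RefSeq transcript length. Their direction is no check, since a pseudocount added to both values cannot turn it and each member has 1 entry. Taking the smallest whole reads changed none of 18 interval calls. Taking the coding length, the intervals of SIM and SMR8 in mms19-1 over the wild type held 1, as did those of SMR4 in abo4 (0.462 to 29.7), at a number of reads below the fewest whole ones. Counts of gene lists moved by more than 1.5 times in 19 of 360 cases, among them, with a pseudocount of 1 FPKM, DNA damage signalling (1 in place of 3 in abo4 and 0 in place of 2 in mms19-1), the trichome genes in abo4 (2 in place of 4) and the flower genes (3 in abo4 and 2 in mms19-1, in place of 5 in each). The 1 library per genotype, the gene models of unknown length, the overlap of SMR5 with FTSH10 and the few reads of SMR4 limit these values.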
